A study of Homo sapiens with 3 samples.

Results

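SOX and POU genes encode transcription factors that set cell fate, and 35 of them were measured in teratomas of H1, an established human embryonic stem cell line. They were all genes of the deposited tables whose symbol is SOX or POU with the family's numbering, 19 SOX and 16 POU genes among 27307 genes in all. Teratomas are growths in which pluripotent cells turn into tissues of the germ layers. The series holds 3 RNA-seq libraries as 1 group, with no comparison group. Undifferentiated H1 cells from serum-free E8 medium were injected subcutaneously, 1000000 at a time, into immunodeficient SCID-beige mice, and tissue was frozen after 3 to 4 weeks. No genetic change or treatment is named. The libraries are named teratomas 1, 2 and 3 after the replicate in their labels. Nothing says that each is a tumour of its own, so the spread between them may be technical. H1 is 1 line, so spread between lines or people was not sampled.

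SOX factors bind DNA through an HMG box that bends the double helix, and they are grouped by sequence from SOXB1 to SOXH. POU factors bind through a POU-specific domain and a POU homeodomain, and are grouped into classes by number. The families meet in cells: SOX2 and POU5F1 bind side by side on genes of pluripotent cells, and SOX2 pairs with POU3F2 in neural progenitors. Other members are known for cartilage (SOX9, SOX5, SOX6), neural crest (SOX10), vessels (SOX7, SOX17, SOX18), endoderm (SOX17) and sensory neurons (the POU4F factors).

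The HMG box signature is shown because it is what the SOX members share at the level of sequence. It spans 27 bases, 9 codons, and was found inside 1 exon in 10 of the 10 SOX members searched, those that also have a RefSeq promoter entry. Bases are from GENCODE release 29 on GRCh38, 5′ to 3′, and capitals mark bases that differ from SOX2.
SOX2: cggcccatgaatgccttcatggtgtgg (chr3:181712487-181712513, + strand)
SOX1: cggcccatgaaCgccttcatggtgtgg (chr13:112067815-112067841, + strand)
SOX3: cggcccatgaaCgccttcatggtAtgg (chrX:140504614-140504640, - strand)
SOX21: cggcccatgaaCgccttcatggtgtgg (chr13:94711996-94712022, - strand)
SOX4: cgAcccatgaaCgccttcatggtgtgg (chr6:21594715-21594741, + strand)
SOX12: AggccGatgaaCgcAttcatggtgtgg (chr20:326048-326074, + strand)
SOX5: cgTccAatgaatgccttcatggtgtgg (chr12:23543284-23543310, - strand)
SOX6: cgAccAatgaatgcAttcatggtTtgg (chr11:15989070-15989096, - strand)
SOX13: AggcccatgaaCgccttcatggtgtgg (chr1:204123705-204123731, + strand)
SOX30: cgAcccatgaaCgcAttTatggtTtgg (chr5:157648823-157648849, - strand)
SOX1 and SOX21 each differed from SOX2 at 1 base of the signature and SOX30 at 5 bases. All these differences lie between codons for the same amino acid, so the 9 codons encode the same stretch in each gene shown.

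The matching stretch of the POU homeodomain covers its DNA-reading helix. It was found inside 1 exon in 8 of the 12 POU members searched by the same rule. The search took only codons of 9 fixed amino acids, so a member with another amino acid there was passed over. POU4F1, POU4F2, POU4F3 and POU5F2 gave no match, which does not show that they lack the stretch. Capitals mark bases that differ from POU3F2.
POU3F2: agagtttggttttgtaacaggagacag (chr6:98836068-98836094, + strand)
POU3F1: CgCgtCtggttCtgCaacCggCgGcag (chr1:38045568-38045594, - strand)
POU3F3: CgGgtCtggttCtgCaaTCggCgCcaA (chr2:104856861-104856887, + strand)
POU3F4: CgTgtCtggttCtgtaaTCgAagacaA (chrX:83509291-83509317, + strand)
POU2F1: CgTgtttggttCtgtaacCgCCgCcag (chr1:167399255-167399281, + strand)
POU2F2: CgCgtCtggttCtgCaacCggCgCcag (chr19:42095367-42095393, - strand)
POU6F1: CgGgtCtggttCtgCaaTCggCgCcag (chr12:51190292-51190318, - strand)
POU1F1: agagtttggttttgCaacCggagGcag (chr3:87259969-87259995, - strand)
POU3F3 differed from POU3F2 at 10 of the 27 bases and POU1F1 at 3, although POU3F3 belongs to the class of POU3F2 and POU1F1 does not. These are differences of codon only. By the rule of the search the 9 amino acids are the same in each gene shown, so the counts do not measure divergence of the protein.

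The libraries held 46243199, 45815401 and 43605459 reads in all in teratomas 1, 2 and 3, and the members held 124811, 129989 and 167398 reads. Levels are RPKM, which divides reads by transcript length and by the library's total, so that genes of unlike length can be compared. Means are given with the SD over the 3 libraries. A gene was called detected at 1 RPKM or more in all 3 libraries. Differences are on the log2(RPKM + 1) scale, on which low genes differ less than their fold. Over detected genes the median difference was -0.06 for teratoma 3 minus 1, -0.01 for 3 minus 2 and -0.02 for 2 minus 1 on that scale. With 3 libraries the smallest two-sided p an exact permutation test can give is 0.25, so no comparison of levels could pass 0.05. Neuron, cartilage and endoderm genes, markers of the germ layers that define a teratoma, were detected in all 3 libraries in 10 of 10, 7 of 12 and 10 of 10 cases. Of all genes 52.7% were detected, so the cartilage count was near that share. The same share stands beside the detected counts of the other gene lists below. Counts of the highest or lowest library in a list stand beside shares of detected genes. The highest library was teratoma 1, 2 and 3 for 39.7%, 19.4% and 40.9% of detected genes. The lowest was teratoma 1, 2 and 3 for 31.3%, 21.7% and 47%. Some lists also hold genes that were not detected, so their counts and these shares cover unlike sets.

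Most members were detected, and the SOX factors were the more abundant family. Of the 35 members 26 were detected, against a background of 52.7% of all genes. They were 16 of 19 SOX and 10 of 16 POU genes. SOX levels summed to 569, 560 and 695 RPKM in teratomas 1, 2 and 3, and POU levels to 61.4, 105 and 159. The median member stood at a mean of 5.65 RPKM, against 2.05 over all genes. The median was 14.1 for SOX and 4.60 for POU genes. POU1F1, POU2F3, POU5F2 and SOX30 were under 1 RPKM in each library, as were 39.5% of all genes. The remaining 5, among them SOX7, SOX14, POU4F2 and POU4F3, passed 1 RPKM in some libraries only.

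**Figure D1:**
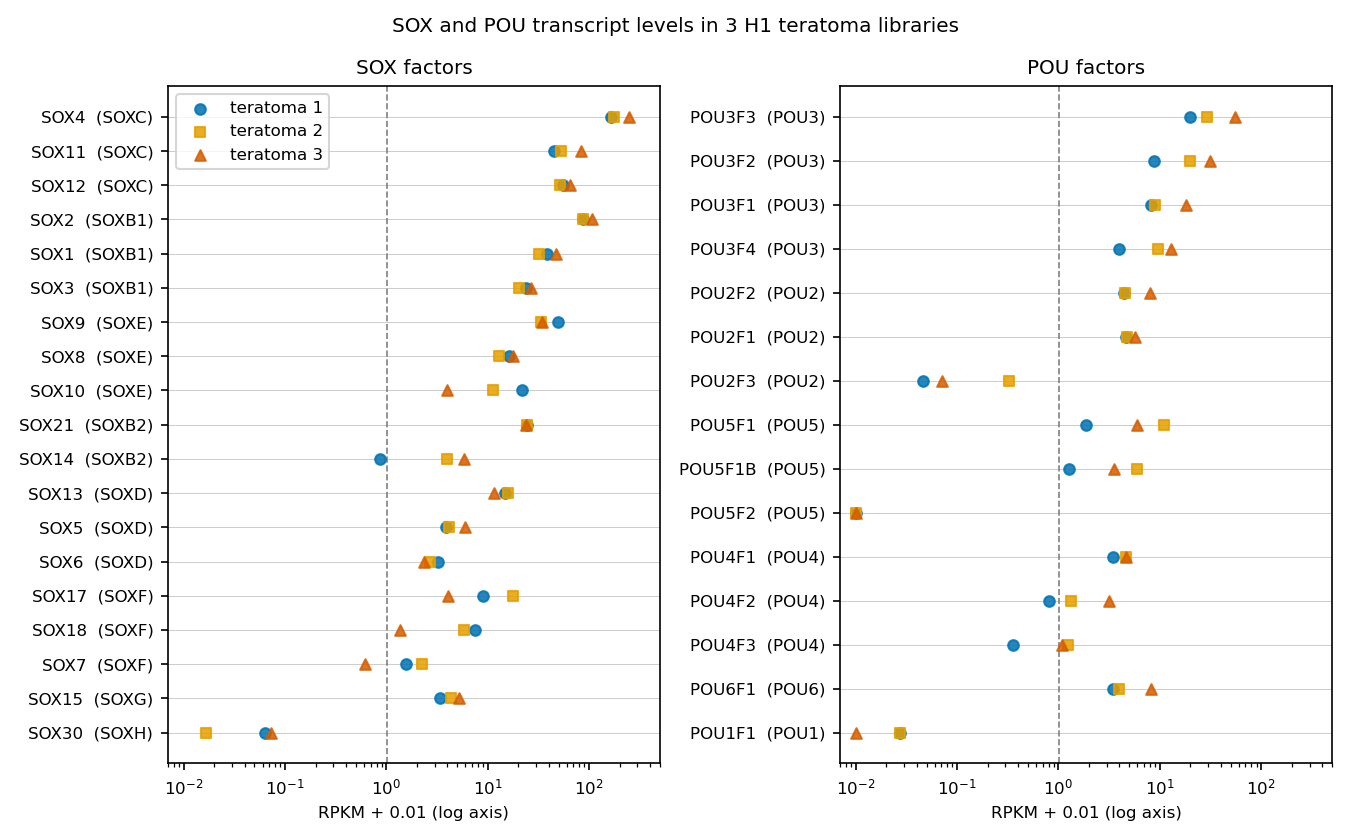
RPKM + 0.01 on a log axis for the 19 SOX genes (left) and 15 POU genes (right), ordered by subgroup, with 1 symbol per teratoma library and a dashed line at 1 RPKM. SOX4 leads at 164 to 250 RPKM, SOX21 has its 3 symbols on top of each other, and POU1F1, POU2F3, POU5F2 and SOX30 lie left of the line.

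SOXC factors, which act in newly formed neurons and in many embryonic precursors, gave the highest sum of any subgroup (314 ± 72.5 RPKM). SOX4 stood at 164, 176 and 250 RPKM in teratomas 1, 2 and 3, rank 116 of all genes by mean. SOX11, its partner in young neurons, stood at 44.7, 52.8 and 82.3 RPKM. SOX12, the weaker activator of the group, stood at 55.7, 51.2 and 64.3 RPKM. All 3 were highest in teratoma 3, where the neuron markers were also highest. SOX4 made 62.0%, 62.9% and 63.1% of the subgroup's sum, a share that hardly moved between libraries. SOX11 minus SOX4 was -1.72 ± 0.128 (exact sign-flip permutation p = 0.25, adjusted p = 0.279 over 19 pairs), with SOX11 lower in 3 of 3 libraries. SOX11 and SOX12 could not be ordered, with SOX11 minus SOX12 at -0.31, 0.04 and 0.35.

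SOXB1 factors hold neural progenitors back from differentiating, and all 3 were detected. SOX2 stood at 86.8, 87.1 and 107 RPKM in teratomas 1, 2 and 3. SOX1, a marker of early neural tissue, stood at 38.6, 31.8 and 47.7 RPKM, and SOX3, the X-linked member, at 24, 20.2 and 26.5. Each was highest in teratoma 3, and the levels of SOX2 did not overlap those of the other two. SOX2 minus SOX1 was 1.24 ± 0.158 and SOX2 minus SOX3 1.95 ± 0.124, higher for SOX2 in 3 of 3 libraries (exact sign-flip permutation p = 0.25 each, adjusted p = 0.279). SOX2 made 58.1%, 62.6% and 59.2% of the subgroup's sum. In the order of all 35 members by mean, 4 of 34 neighbouring pairs had ranges that did not overlap: SOX4 above SOX2, SOX2 above SOX11, SOX12 above SOX1, and POU4F3 above POU2F3.

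The 10 neural progenitor genes placed with these factors were all detected, and 8 of the 10 were highest in teratoma 3, beside 40.9% of detected genes. NES, an intermediate filament of progenitors, stood at 94.0, 87.8 and 98.4 RPKM in teratomas 1, 2 and 3. FABP7, a radial glia protein, stood at 34.3, 48.8 and 134 RPKM. NES differed by 0.16 between the highest and the lowest library and FABP7 by 1.94, beside 0.30 for SOX2.

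SOX1 and SOX2 transcripts share an exact run of 89 bases in their coding parts, shown because it is longer than the run in any other pair of the same subgroup outside POU5. It lies at chr3:181712499-181712587 on the + strand in SOX2 and at chr13:112067827-112067915 on the + strand in SOX1 (GRCh38).
Shared run: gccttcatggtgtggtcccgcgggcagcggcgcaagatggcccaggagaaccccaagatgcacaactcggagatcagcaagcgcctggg
A read inside it cannot be assigned to 1 of the genes. Over 29 pairs within a subgroup, POU5 left out, the median run was 30 bases and 2 pairs had 50 or more. The read length is not given in the sources used here.

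SOXB2 factors, known as counterweights to SOXB1 in the neural tube, held the detected member with the smallest difference between libraries and one with a large difference. SOX21 stood at 24.6, 24.7 and 23.9 RPKM in teratomas 1, 2 and 3, a difference of 0.04 between the highest and the lowest library. The 95% counting intervals of those libraries overlapped, which among the 26 detected members held for SOX21 alone. SOX14, made by subsets of spinal and midbrain neurons, stood at 0.859, 3.94 and 5.81 RPKM on 81, 368 and 517 reads. SOX14 was lowest in teratoma 1 with a highest-to-lowest difference of 1.87, so the libraries differed for one paralog and not detectably for the other. SOX21 minus SOX14 was 3.78, 2.38 and 1.87.

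SOXE factors divided by library. SOX9, the master factor of cartilage and also a glial factor, stood at 49.1, 33.9 and 34.0 RPKM in teratomas 1, 2 and 3. SOX8 stood at 16.2, 13.0 and 18.0 RPKM. SOX10, the factor of neural crest, Schwann cells and melanocytes, stood at 21.6, 11.3 and 3.99 RPKM on 2857, 1481 and 498 reads. SOX10 was lowest in teratoma 3 and 5.41-fold higher in teratoma 1, while SOX8 was highest in teratoma 3. SOX9 minus SOX10 was 1.15, 1.50 and 2.81.

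The 12 neural crest, Schwann and pigment genes placed with SOX10 were detected in 10 cases, and 9 of 12 were lowest in teratoma 3. Of all detected genes 47% were lowest there. They summed to 181, 141 and 91.7 RPKM in teratomas 1, 2 and 3. NGFR, a neurotrophin receptor, stood at 34.3, 16.4 and 13.4 RPKM, and ERBB3, a neuregulin receptor that SOX10 activates, at 30.5, 23.1 and 7.59. NGFR and ERBB3 each had the library order of SOX10. In bulk tissue fewer cells of a type and less RNA per cell cannot be told apart.

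SOXD factors, which assist SOX9 in cartilage and act in neurons and blood, were all detected, at levels below those of SOX9. SOX13 stood at 14.7, 16 and 11.5 RPKM in teratomas 1, 2 and 3. SOX5 stood at 3.83, 4.14 and 5.91 RPKM, and SOX6 at 3.20, 2.66 and 2.34. SOX5 was highest in teratoma 3 and SOX6 in teratoma 1, so SOX5 minus SOX6 was 0.20, 0.49 and 1.05. The cartilage genes varied far more than these factors. The list of 12 summed to 322, 139 and 48.6 RPKM, with 7 of 12 detected, 11 of 12 highest in teratoma 1 and 12 of 12 lowest in teratoma 3. Of all detected genes 39.7% were highest in teratoma 1 and 47% lowest in teratoma 3. COL2A1, the cartilage collagen that SOX9 activates, stood at 166, 68.9 and 20.9 RPKM, whereas SOX9 was level between teratomas 2 and 3. COL9A2, a chain of another cartilage collagen, stood at 38.7, 17.1 and 9.79 RPKM.

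SOXF factors, which act in vessels and, for SOX17, in endoderm, were lowest in teratoma 3 in all 3 cases. SOX17 stood at 9, 17.8 and 4.07 RPKM in teratomas 1, 2 and 3. SOX18, a factor of blood and lymph vessels, stood at 7.41, 5.85 and 1.36 RPKM. SOX7 stood at 1.54, 2.24 and 0.609 RPKM. SOX17 and SOX7 were highest in teratoma 2 and SOX18 in teratoma 1.

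The 12 endothelium genes summed to 53.1, 56.2 and 16.4 RPKM in teratomas 1, 2 and 3, with 4 of 12 detected and 12 of 12 lowest in teratoma 3. Beside this and the counts of lowest library that follow stands a share of 47% of detected genes lowest in teratoma 3. CLDN5, a tight junction gene of endothelium, stood at 12.1, 10.3 and 2.79 RPKM, and EGFL7, a secreted vessel protein, at 20.9, 20.9 and 7.49. The defining marker CDH5 stood at 4.45, 5.14 and 0.913 RPKM. The endoderm list of SOX17 summed to 704, 2245 and 276 RPKM, with 10 of 10 detected. It was carried by AFP, a fetal plasma protein, at 452, 1889 and 159 RPKM, and TTR, a hormone carrier of plasma, stood at 73.0, 175 and 23.5. AFP, TTR and SOX17 were highest in teratoma 2, but the list was mixed: 5 of the 10 genes were highest in teratoma 2, 4 in teratoma 1 and 1 in teratoma 3, and 9 of 10 were lowest in teratoma 3. Both sums were lowest in teratoma 3, as the SOXF factors were, and their part in the result was not tested. Leukocyte genes, which host cells could bring, summed to 37.6, 33.3 and 14.2 RPKM with 3 of 6 detected and 5 of 6 lowest in teratoma 3. They were led by CD74 at 24.4, 17.9 and 8.94 RPKM and CD68 at 7.19, 10.2 and 3.45. PTPRC stood at 0.066, 0.128 and 0.079 RPKM and ITGAM at 0.046, 0.074 and 0, the 2 of the 6 under 1 RPKM throughout. Reads of mouse origin were not told apart.

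SOX15 and SOX30 are the single members of their subgroups. SOX15, made in placenta and stem cells in mouse, stood at 3.38, 4.35 and 5.23 RPKM in teratomas 1, 2 and 3. SOX30, a factor of male germ cells, stood at 0.053, 0.0067 and 0.063 RPKM on 8, 1 and 9 reads. Of the 6 spermatid genes TEKT2, a cilium gene, was detected at 7.18, 6.18 and 5.30 RPKM, ACRV1, an acrosome gene, stood at 0.110, 0.241 and 0.273, and PRM1, PRM2 and ODF1 were at 0 reads in each library. SOX30 thus lay near the level that 3 reads give, 0.020 to 0.021 RPKM.

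POU3F factors, which act in neural progenitors and developing neurons, were the POU class with the highest sum, and its 4 members had 1 library order. POU3F3 stood at 19.7, 29 and 54.9 RPKM in teratomas 1, 2 and 3. POU3F2, which helps convert fibroblasts to neurons, stood at 8.68, 19.6 and 30.9 RPKM. POU3F1, also a factor of Schwann cells, stood at 8.12, 8.93 and 18.0 RPKM, and POU3F4, a factor of the inner ear and brain, at 3.92, 9.65 and 12.9. All 4 had the same library order, lowest in teratoma 1 and highest in teratoma 3, with highest-to-lowest differences of 1.43, 1.72, 1.06 and 1.50 in the order given. The class summed to 40.4, 67.2 and 117 RPKM. POU3F3 made 48.7%, 43.1% and 47.0% of it, so the share of POU3F3 moved less than the sum of the class. POU3F2 minus POU3F3 was -0.81 ± 0.280 and POU3F2 minus POU3F4 1.04 ± 0.135, each with 1 sign in 3 of 3 libraries (exact sign-flip permutation p = 0.25, adjusted p = 0.279). POU3F2 minus POU3F1 was 0.09, 1.06 and 0.75.

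The 10 neuron genes were highest in teratoma 3 and lowest in teratoma 1 in 10 of 10 cases, the library order of the POU3F class. Of all detected genes 40.9% were highest in teratoma 3 and 31.3% lowest in teratoma 1. They summed to 830, 1063 and 2829 RPKM in teratomas 1, 2 and 3. TUBB3, a neuronal tubulin, stood at 435, 510 and 1216 RPKM, and STMN2, an axonal protein, at 103, 137 and 440. SOX11, with a highest-to-lowest difference of 0.87, and SOX4, with 0.61, moved less than the POU3F genes. The part of the neuron markers in these differences was not tested.

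Promoters of the 4 POU3F genes are shown because these genes form 1 class with 1 library order. That order, rising from teratoma 1 to 3, was not particular to the class. SOX2, SOX4, SOX5, SOX11, SOX14, SOX15, POU2F1, POU2F2, POU4F1, POU4F2 and POU6F1 had it too. Each is the 250 bases before the start of the gene, from RefSeq on GRCh38.p14, and capitals mark CCAAT boxes (CCAAT, or ATTGG on the other strand).
POU3F1: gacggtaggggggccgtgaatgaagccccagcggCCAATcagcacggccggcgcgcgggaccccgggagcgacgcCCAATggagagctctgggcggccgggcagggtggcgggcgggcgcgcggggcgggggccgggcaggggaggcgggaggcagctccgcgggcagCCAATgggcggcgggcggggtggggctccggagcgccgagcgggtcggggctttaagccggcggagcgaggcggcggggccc (chr1:38046794-38047043, - strand)
POU3F2: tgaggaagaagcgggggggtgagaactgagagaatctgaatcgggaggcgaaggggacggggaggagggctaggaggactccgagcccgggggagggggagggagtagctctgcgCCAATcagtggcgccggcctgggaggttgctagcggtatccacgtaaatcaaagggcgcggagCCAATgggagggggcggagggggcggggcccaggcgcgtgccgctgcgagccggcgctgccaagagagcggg (chr6:98834324-98834573, + strand)
POU3F3: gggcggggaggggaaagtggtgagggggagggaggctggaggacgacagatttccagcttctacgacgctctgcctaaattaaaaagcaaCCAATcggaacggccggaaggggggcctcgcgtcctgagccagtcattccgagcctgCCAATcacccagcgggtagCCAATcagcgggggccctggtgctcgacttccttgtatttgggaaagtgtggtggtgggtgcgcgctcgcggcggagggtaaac (chr2:104853865-104854114, + strand)
POU3F4: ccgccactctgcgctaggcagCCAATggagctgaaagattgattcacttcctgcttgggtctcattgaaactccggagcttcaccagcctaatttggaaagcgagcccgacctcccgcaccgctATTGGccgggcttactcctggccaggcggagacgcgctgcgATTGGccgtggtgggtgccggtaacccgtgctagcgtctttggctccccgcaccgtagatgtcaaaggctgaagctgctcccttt (chrX:83508040-83508289, + strand)
The 4 promoters held 3, 2, 3 and 3 CCAAT boxes in the order shown. At least 2 were found in 9.53% and at least 1 in 32.0% of 35116 promoters of the same length. The 22 members with an entry have 30 promoters, since some have several start sites, and a member was counted if any of its promoters held the motif. CCAAT was found in 12 of the 30 promoters and in 10 members, namely the 4 POU3F genes, SOX2, SOX3, SOX4, SOX6, SOX12 and SOX21. SOX5, POU2F1, POU2F2, POU4F1, POU4F2 and POU6F1 shared the library order of the POU3F genes, and their promoters held no CCAAT. A link between the motif and the library order was not tested. The octamer that POU factors bind, ATGCAAAT on either strand, was found in 3 of the 30 promoters, of SOX12, POU2F1 and POU5F2, and in 1.63% of all promoters. The SOX core CATTGT was found in 4 of the 30, of SOX5, SOX6 and POU2F1 (9.29% of all promoters), and the core ACAAAG in 5 of the 30, of SOX2, SOX6, SOX30, POU2F1 and POU5F2 (13.7%). The motif TATAAA was found in 7 of the 30 (10.7%), and 3 of the 7 were promoters of SOX6. None of the octamer, the SOX cores and TATAAA was found in the 250 bases of a POU3F gene. The G and C content of the POU3F promoters was 80.8%, 69.2%, 62% and 60%, beside a median of 58% over all promoters.

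**Figure D2:**
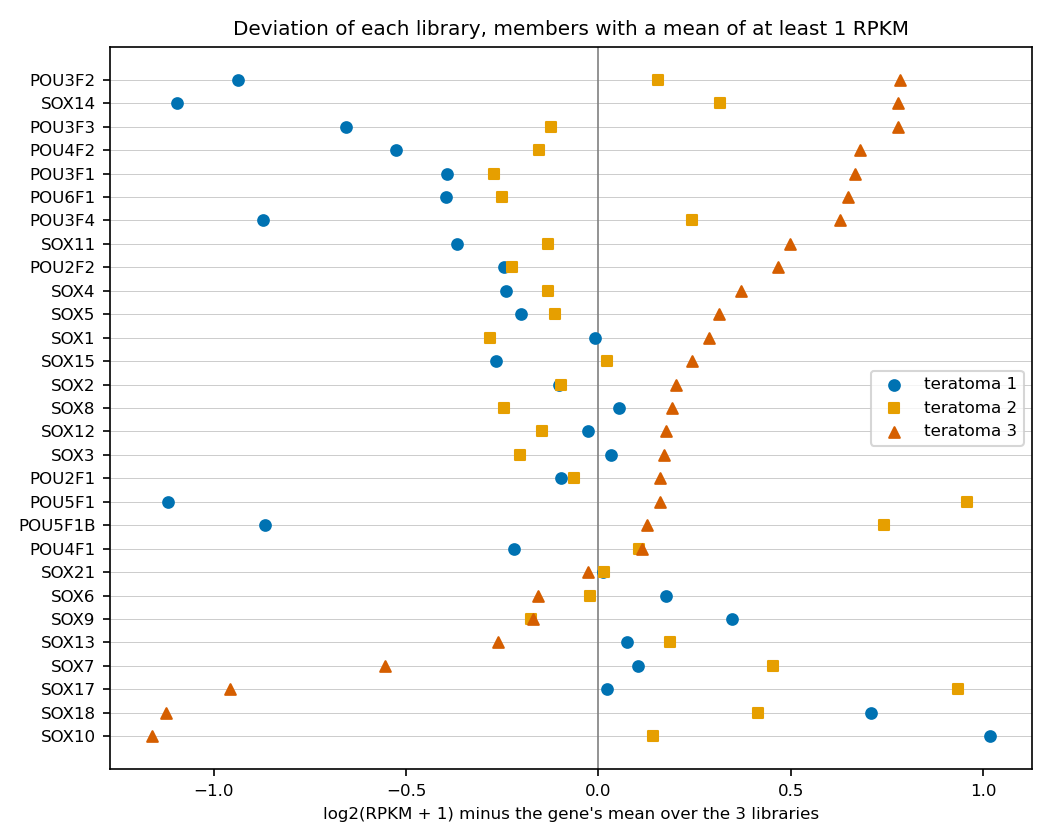
Log2(RPKM + 1) of each teratoma library minus the gene's mean over the 3 libraries, for the members with a mean of at least 1 RPKM, sorted by teratoma 3. The POU3F genes, with SOX14, POU4F2 and POU6F1 between them, lie at the top with teratoma 3 to the right. SOX10 and the SOXF genes lie at the bottom with teratoma 3 to the left, and POU5F1 and POU5F1B have teratoma 2 to the right.

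POU4F factors, which act in sensory and retinal ganglion neurons and, for POU4F3, in hair cells, were low. POU4F1 stood at 3.46, 4.59 and 4.62 RPKM in teratomas 1, 2 and 3, POU4F2 at 0.806, 1.33 and 3.17, and POU4F3 at 0.348, 1.24 and 1.07 on 19, 67 and 55 reads. Each was lowest in teratoma 1. POU4F1 was above both paralogs in 3 of 3 libraries, by 1.00 ± 0.491 over POU4F2 and 1.50 ± 0.208 over POU4F3 (exact sign-flip permutation p = 0.25, adjusted p = 0.279). Of the 10 sensory and ganglion neuron genes 9 were detected, led by PRPH, a filament of peripheral neurons, at 61.6, 29.6 and 32.3 RPKM and the neurotrophin receptor NTRK2 at 18.6, 35.5 and 64.7. The list had no common library order: 4 genes were highest in teratoma 1, 1 in teratoma 2 and 5 in teratoma 3. Of the 7 hair cell genes 2 were detected, led by the myosin MYO6 at 6.71, 7.33 and 5.41 RPKM, followed by ESPN, an actin bundling protein, at 4.54, 5.08 and 1.58.

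POU5F1, the pluripotency factor also called Oct4, was present at low levels that varied 5.95-fold. It stood at 1.86, 11.1 and 5.93 RPKM on 122, 719 and 367 reads in teratomas 1, 2 and 3. POU5F1B, a retrogene copy, stood at 1.26, 5.88 and 3.49 RPKM, and the pseudogenes POU5F1P3 and POU5F1P4 at 2.45, 9.44 and 6.62 and at 0.619, 5.08 and 3.26. The pseudogene POU5F1P5 and the spermatid gene POU5F2 had 0 reads throughout, where 3 reads would give 0.050 to 0.053 RPKM for POU5F2. The gene and the 3 copies with reads had the same library order, lowest in teratoma 1 and highest in teratoma 2. Their values cannot be taken as separate measurements. The POU5F1 transcript shares exact runs of 167 bases with POU5F1B, 180 with POU5F1P3 and 156 with POU5F1P4. POU5F1 was listed with 7 genome placements and each of these copies with 1. What the 7 placements are is not given in the sources used here. Of all 50-base windows, 23.7% of POU5F1B, 41.2% of POU5F1P3 and 30.2% of POU5F1P4 occur unchanged in POU5F1. These windows are of GENCODE transcripts, and that of POU5F1B has 2102 bases, against 1585 in the entry counted.

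Entries of POU5F1 differed by 3.61-fold in mean, more than those of any other member. The entry with the highest mean, of 1420 bases, had 122, 719 and 367 reads in teratomas 1, 2 and 3, and the other 4, of 1581 to 2303 bases, had 58, 299 to 302 and 182. In those 4 entries teratoma 1 was at 0.545 to 0.793 RPKM, and with the mean over entries POU5F1 was no longer detected, which left 9 POU members in place of 10. The 9 other members with several entries differed by at most 1.33-fold between them.

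SOX2 did not follow POU5F1, being highest in teratoma 3. Of the 12 pluripotency genes 7 were detected, near the share of 52.7% of all genes. In 11 of the 12 teratoma 2 was highest, as for POU5F1, beside 19.4% of detected genes. The count takes all 12 genes and the share only detected ones, so they cover unlike sets. The exception was LEFTY1, a Nodal inhibitor, at 41.7, 11.3 and 3.67 RPKM in teratomas 1, 2 and 3. Of the 11, 4 were under 1 RPKM in each library and 2 had 0 reads in at least 1 library. Some of these library orders therefore rest on few reads. LIN28A, an RNA-binding protein of early cells, stood at 11.2, 31.6 and 9.14 RPKM. NANOG stood at 0.495, 0.605 and 0.424 RPKM on 47, 57 and 38 reads, so the level of SOX2 stood far above that of POU5F1 and NANOG.

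POU2F factors bind the octamer in many tissues. POU2F1, the ubiquitous member, stood at 4.58, 4.71 and 5.66 RPKM in teratomas 1, 2 and 3. POU2F2, known from B cells and also made by neurons, stood at 4.46, 4.54 and 7.95 RPKM. They could not be ordered, with POU2F1 minus POU2F2 at 0.03, 0.04 and -0.42. Of the 7 B cell genes PAX5, which midbrain precursors also make, was detected at 1.44, 1.93 and 1.88 RPKM, CD22, a B cell surface receptor, stood at 0.587, 0.561 and 0.0748, and MS4A1 had 0 reads. POU2F3, the factor of tuft cells, stood at 0.036, 0.31 and 0.061 RPKM on 5, 43 and 8 reads. The tuft cell list had 1 of 6 genes detected, AVIL, an actin regulator, at 1.24, 1.03 and 1.23 RPKM. ALOX5, an enzyme of leukotriene synthesis, stood at 1.00, 2.14 and 0.535 RPKM.

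POU6F1, a brain factor, stood at 3.47, 3.95 and 8.23 RPKM in teratomas 1, 2 and 3. It was highest in teratoma 3 and 2.37-fold lower in teratoma 1. POU1F1, the pituitary factor, had 1, 1 and 0 reads. The hormone gene GH1 and the receptor gene GHRHR had 0 reads. PITX1, which limb precursors also make, stood at 55.6, 54.3 and 13.7 RPKM and was 1 of 2 genes detected among the 10 of the pituitary list.

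**Figure D3:**
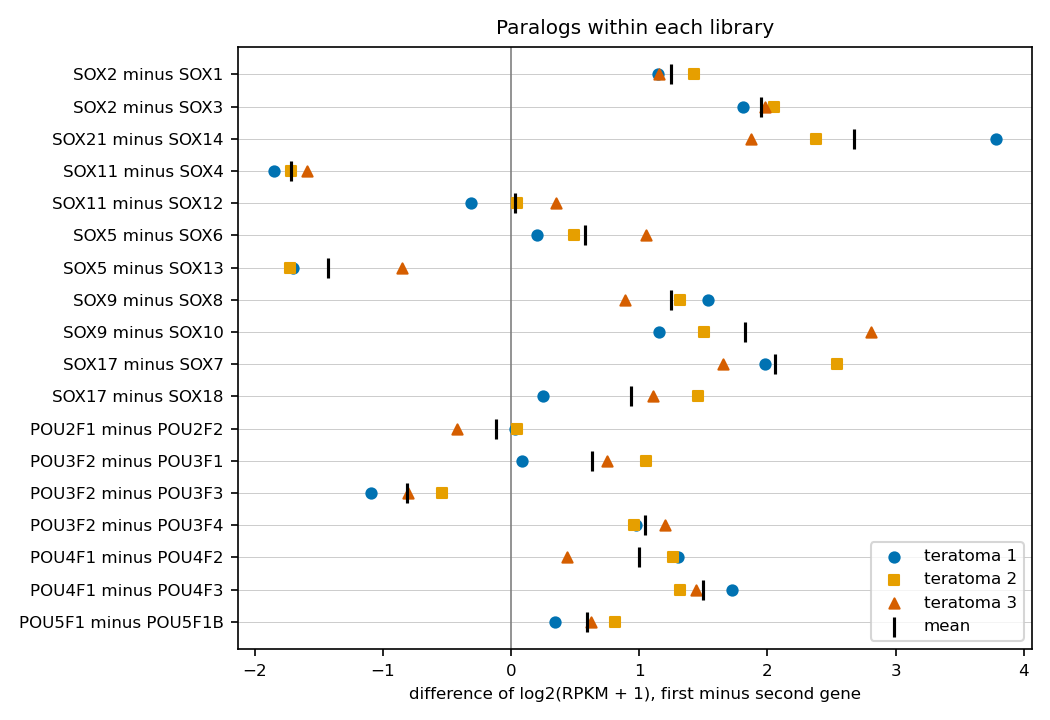
Difference of log2(RPKM + 1), first minus second gene, for 18 of the 19 pairs of paralogs, with 1 symbol per teratoma library and a bar at the mean. In 16 pairs the 3 symbols lie on 1 side of 0, and in SOX11 minus SOX12 and POU2F1 minus POU2F2 they do not.

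Across the 35 members, 13 had a highest-to-lowest difference of 1 or more, against 12.1% of all genes. They were 5 SOX and 8 POU genes. The 95% counting intervals of both libraries were separate in all 13. Adding this condition left 11.7% of all genes in place of 12.1%, so it was met by most genes with such a difference. POU3F1, POU3F2, POU3F3, POU3F4, POU4F2, POU6F1 and SOX14, 7 members, were highest in teratoma 3, against 4.52% of all genes. POU5F1, POU5F1B, SOX7 and SOX17 were highest in teratoma 2 (2.93% of all genes), and SOX10 and SOX18 in teratoma 1 (4.64%). POU5F1 and POU5F1B cannot be taken as separate measurements, but each counts as a member in these numbers. The lowest library was teratoma 1 for 9 of the 13 (4.53% of all genes) and teratoma 3 for SOX7, SOX10, SOX17 and SOX18 (7.07%). POU5F1 and SOX10 alone had a difference of 2 or more, beside 1.52% of all genes. That number was 0 without teratoma 1, 1 without teratoma 2 and 1 without teratoma 3, and 6 with a pseudocount of 0.1 or after rescaling each library to 1000000. Such rescaling raised every value while the pseudocount stayed at 1, so it too made the pseudocount weigh less. A gene under 1 RPKM throughout cannot reach 1 on this scale, so detected members were also set against detected genes. Of the 26 detected members 10 reached 1, against 17.6% of detected genes. The highest library was teratoma 3 for 17 of the 26 (40.9% of detected genes), teratoma 2 for 5 (19.4%) and teratoma 1 for 4 (39.7%). The lowest was teratoma 1 for 15 (31.3%), teratoma 2 for 5 (21.7%) and teratoma 3 for 6 (47.0%). Detected members stood above the median gene in level, and the shares are not matched for level. Without teratoma 1 the number that reached 1 was 4 of 35, and without teratoma 3 it was 5.

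**Figure D4:**
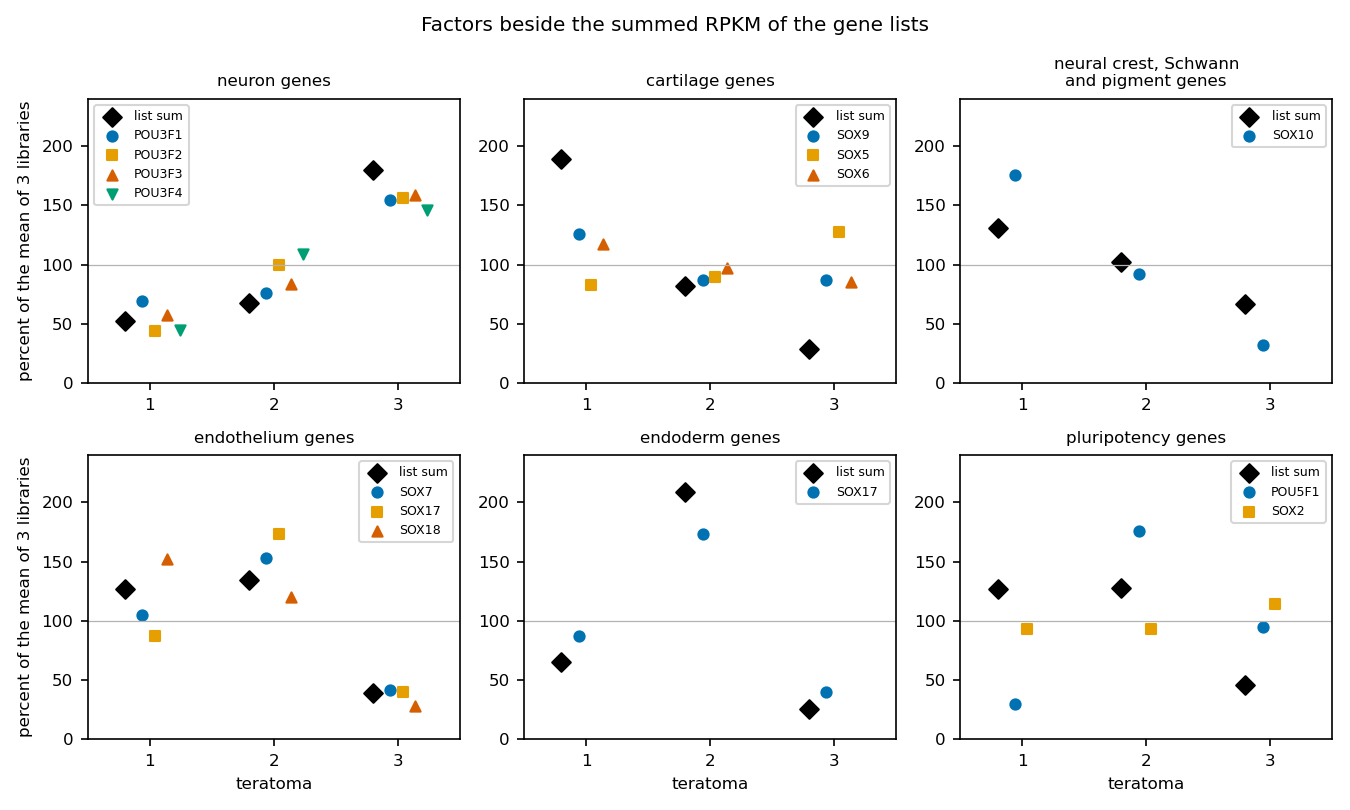
Summed RPKM of 6 gene lists (diamonds) and RPKM of factors (other symbols) in each teratoma library, as percent of their own mean over the 3 libraries. The POU3F genes and neuron genes are highest in teratoma 3, SOX9 varies less than the cartilage genes, and the SOXF genes and endothelium genes are lowest in teratoma 3.

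Transcripts next to or overlapping members followed them in part. SOX2-OT, a long non-coding transcript that spans SOX2 and is listed on the same strand, stood at 6.06, 8.27 and 11.7 RPKM in teratomas 1, 2 and 3. SOX21-AS1 stood at 8.36, 7.78 and 8.18 RPKM, with a highest-to-lowest difference of 0.09 beside 0.04 for SOX21. LINC01158, which lies 93 bases from POU3F3 in RefSeq on GRCh38 under the symbol PANTR1 and which was picked after its values were seen, stood at 4.08, 4.49 and 13.1 RPKM and was highest in teratoma 3, as POU3F3 was. SOX9-AS1 (0.606, 0.252 and 0.363 RPKM) was under 1 RPKM throughout. The strand of the reads is not given in the sources used here, so reads of SOX2 and SOX2-OT in shared bases cannot be told apart.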

How the data were processed

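RNA-seq of polyadenylated RNA from 3 teratoma libraries was used, with 1 table per library. Bowtie2 and hg19 are named in the submitters' processing notes. Not given in the sources used here are the counting tool, filters, read length, strand setting and treatment of mouse reads. Bowtie2 does not split reads over introns, so if it was run against the genome, reads over exon junctions could be missing. Of the members 13 have 1 exon and 22 more in GENCODE release 29, with 11 and 15 of them detected, and the effect was not tested.

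The deposited RPKM values equal the authors' read count divided by length and by 1 total per library. The deposited counts are whole reads per RefSeq entry. The 59443 entries became 27307 genes by keeping, per symbol, the entry whose RPKM was highest on average. Counting intervals are exact Poisson (95%), and these and levels of 3 reads cover counting error only.

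Paralogs were compared as log2(RPKM + 1) with a pseudocount of 1 RPKM with an exact permutation test that flips signs of the 3 library differences, two-sided, Benjamini-Hochberg adjusted over 19 pairs. No model of groups could be fitted to 1 group. Differences between libraries compare those libraries only. The computation was tested on simulated data. Library totals were worked out from counts, lengths and RPKM. Sequences and chromosomes are from RefSeq and GENCODE on GRCh38, so they carry another build than the counts. All 35 members matched a GENCODE transcript by accession and 22 a RefSeq promoter, and chromosome coordinates belong to the sequences only. A match by accession did not mean equal length. The transcript of POU3F4 has 3867 bases and its counted entry 1507, and that of SOX1 2842 and 4108. Shared runs and windows describe the GENCODE transcripts.

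The members, the 14 lists (130 genes) and the pairs were chosen with earlier results of these data known. Named were the members, each list's 2 most abundant genes by mean RPKM, entries named after a member, and POU5F1 pseudogenes. NANOG, CDH5, PTPRC, ITGAM, LINC01158 and genes at 0 reads were added after values were seen. Some genes that the rule would name are not reported here, though they remain in the counts and sums. Alternatives covered the detection level, pseudocount, low-value filter, entries of a gene, scaling and each library left out. Python 3.11.15, numpy 2.4.6, pandas 2.3.3, scipy 1.17.1 and matplotlib 3.10.9 were used.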

Additional observations from a re-analysis of the deposited data

How the results depend on the processing

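The order of paralogs depended little on the processing: 15 of the 19 pairs kept their sign under each alternative run. Reversals were SOX5 minus SOX13 with entries of a gene summed (0.89, against -1.43), POU5F1 minus POU5F1B with the mean over entries (-0.23, against 0.59), and, without teratoma 3, SOX11 minus SOX12 (-0.13, against 0.03) and POU2F1 minus POU2F2 (0.037, against -0.12). With 1 library left out these pairs ranged from -0.13 to 0.20 and from -0.20 to 0.037. Summing counts reads of shared exons once per entry, and SOX5 has 6 entries in the table. Detection at 5 RPKM left 13 members (10 SOX and 3 POU) and 3 lists with at least 50% of genes detected, against 8. The number of members differing by at least 1, 13 of 35, was 4 to 10 with 1 library left out. The number differing by at least 2, 2 of 35, was 0 to 1 with 1 library left out, 1 with the mean over entries, and 6 both after rescaling to 1000000 per library and with a pseudocount of 0.1. Deposited values summed to 275942 to 297261 RPKM per library, so rescaling raised every value against the fixed pseudocount of 1. When libraries were scaled by their median ratio of reads, the number stayed 2. No paired analysis was possible because there is 1 group, so no samples could be paired across groups. Paralogs were compared within each library. Reads limit POU1F1, POU5F2 and SOX30, whose library differences were not detectable at this depth.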
